A study of Homo sapiens with 32 samples.

Results

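The 10 genes described here encode the BAG proteins and other proteins that act on HSP70 or its clients. They were taken by symbol: BAG1, BAG2, BAG3, BAG4, BAG5, BAG6, HSPBP1, ST13, HSPH1 and STUB1. All 10 were found, with 1 row each, among the 60107 genes counted. RNA of U2OS cells, a human osteosarcoma line, and HEK293T cells, a line from human embryonic kidney, had been sequenced from the 3′ end of transcripts (QuantSeq with molecular identifiers) in 32 libraries. The study asked how damage to DNA changes protein aggregation and the chaperones that counter it.

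HSP70 binds unfolded stretches of a client tightly while it carries ADP and lets go when ADP is exchanged for ATP. Nucleotide exchange factors speed that release. BAG domain proteins such as BAG1 do so through a helical bundle, and HSPBP1 through an armadillo fold. HSPH1 does so as a member of the HSP110 branch of the HSP70 family itself. ST13, also called Hip, has the opposite effect and keeps HSP70 in its ADP state. STUB1, also called CHIP, is a ubiquitin ligase that docks on HSP70 and marks clients that cannot be refolded. The exchange factors thus route clients: BAG1 towards the proteasome, BAG3 towards autophagy together with small heat shock proteins, while BAG2 and HSPBP1 restrain STUB1. BAG6 shields hydrophobic and tail-anchored proteins in the cytosol, BAG4 is known as a silencer of death domain receptors, and BAG5 carries several BAG domains.

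The libraries formed 8 sets of 4. U2OS cells were treated with camptothecin (CPT), which traps topoisomerase I on DNA (libraries 26 to 29), or with the solvent DMSO (30 to 33). HEK293T cells were treated with DMSO (22 to 25) or were labelled ATM KO (18 to 21). The latter were taken as cells given an inhibitor of ATM, the kinase that signals DNA breaks, because the study describes RNA sequencing of HEK293T cells with the inhibitor and not of a HEK293T knockout. Treatment lasted 24 h and was followed by 48 h of recovery. U2OS cells with or without ATM were grown untreated for 72 h. The ATM KO cells were CRISPR clones picked one by one, so that a clone and the loss of ATM cannot be told apart. The study describes 4 biological repeats of each experiment.

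For the libraries numbered 1 to 17 the labels and the profiles disagreed. Libraries 2, 4, 6 and 8 are labelled HEK293T CPT and libraries 3, 5 and 7 HEK293T DMSO, yet with library 1 (labelled U2OS WT) they summed to 1639.9 to 2387 CPM over 10 U2OS marker genes. Libraries 10, 12, 14 and 16 are labelled U2OS ATM KO and libraries 11, 13 and 15 U2OS WT, yet with library 17 (labelled HEK293T DMSO) they summed to 50.1 to 119.6 CPM. HEK293T DMSO libraries 22 to 25 stood at 85.2 to 127 CPM and U2OS DMSO libraries 30 to 33 at 1355 to 1655 CPM. Over 5 HEK293T markers the sums were 311 to 535 CPM in libraries 10 to 17 and 80.04 to 165 CPM in libraries 1 to 8. They were 184 to 273 CPM in HEK293T DMSO and 167 to 215 CPM in U2OS DMSO, which overlap, so this sum does not separate the lines whose labels and profiles match. One of the 5, NEFL, was higher in U2OS DMSO than in HEK293T DMSO, by 1.47 (SE 0.12, adjusted p = 1.94e-12) on the log2 scale, and the other 4 were lower. A sum over 9 p53 target genes, used as a check of damage, was 884 to 1316 CPM in libraries 10, 12, 14 and 16 against 427 to 638 CPM in libraries 11, 13, 15 and 17. It was also somewhat higher in libraries 2, 4, 6 and 8, at 654 to 812 CPM against 493 to 667 CPM in libraries 1, 3, 5 and 7, with overlap. The libraries were therefore compared by number, even against odd, within 1 to 8 and within 10 to 17. Reading the first as U2OS ATM KO against WT and the second as HEK293T CPT against DMSO rests on profiles and numbers and not on the labels, so directions are given between libraries and not between conditions. ATM itself stood at 69.02, 78.2, 59.3 and 65.6 CPM in libraries 1, 3, 5 and 7, at 66.8, 61.2, 61.1 and 35.4 CPM in libraries 2, 4, 6 and 8, at 36.5, 34.8, 28.6 and 27.9 CPM in libraries 10, 12, 14 and 16 and at 25.3, 21.1, 31.03 and 33.2 CPM in libraries 11, 13, 15 and 17. The study made its ATM KO cells with CRISPR/Cas9 and HDR plasmids and does not describe the lesion. Whether that lesion lowers a 3′ tag is not known here, so these levels were not used to check a label. Library totals over genes lay between 1232674 and 6362433 per library.

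Levels are given as CPM, counts per 1000000 counts on genes after TMM scaling over the 32 libraries, with the SD of n = 4 libraries. Fold changes are on the log2 scale from edgeR's quasi-likelihood test, and a gene was called when its p, adjusted by Benjamini-Hochberg over all genes tested, was under 0.05. Overlap between groups is described for single members, and the share of all genes without overlap was not counted. The plot of levels by library shows the members in all 8 sets. The HSPH1 means ran from 169 CPM in HEK293T DMSO to 540.0 CPM in U2OS CPT, and the ST13 means from 116 CPM in libraries 2, 4, 6 and 8 to 390.2 CPM in libraries 11, 13, 15 and 17. BAG6 varied least between sets, by 1.47-fold from the lowest to the highest mean, and BAG4 most, by 4.54-fold. A QuantSeq fragment is counted once per transcript whatever its length, but levels are compared here between libraries and not between genes. On GRCh38 (GENCODE 29) BAG3 lies at chr10:119651370-119677819, HSPH1 at chr13:31134974-31162388, STUB1 at chr16:680224-682870, ST13 at chr22:40824535-40857022, BAG1 at chr9:33247820-33264720, BAG2 at chr6:57172326-57189833 and HSPBP1 at chr19:55262231-55280381, all protein-coding genes.

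**Figure D1:**
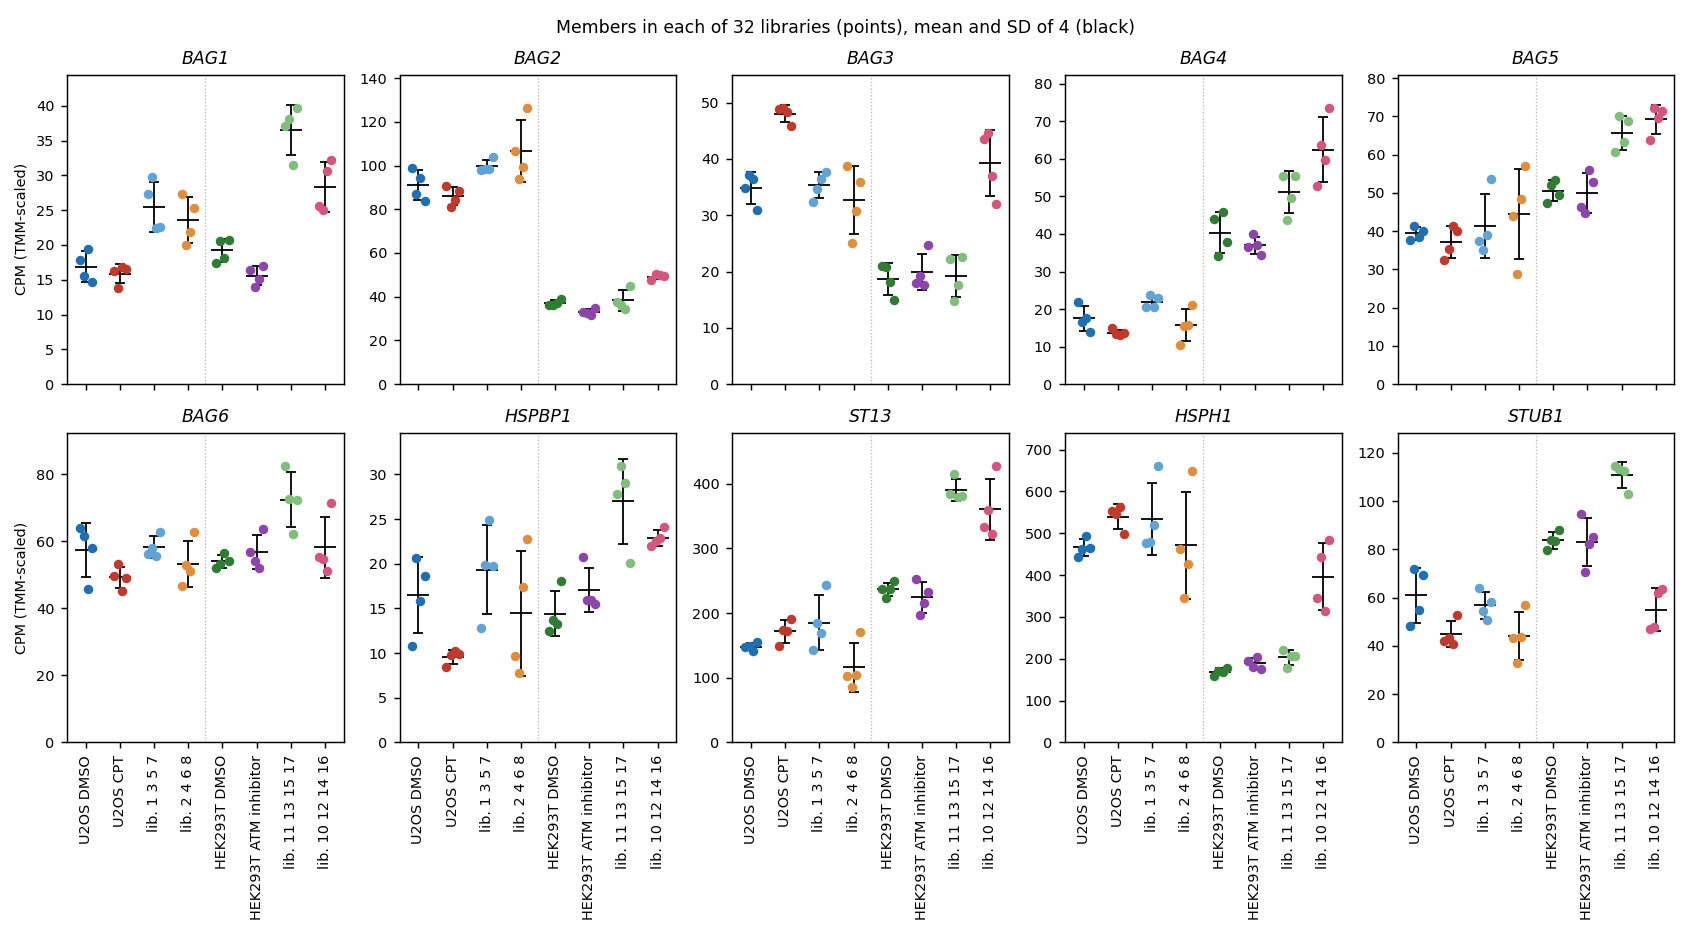
Level of each of the 10 members (CPM, TMM-scaled, axis from 0) in every library, by set. Points are libraries and black marks the mean and SD of 4. By their means BAG2 and HSPH1 stand higher and BAG4 lower in the U2OS sets left of the dotted line than in the others, and BAG3 and HSPH1 of libraries 10, 12, 14 and 16 lie above those of libraries 11, 13, 15 and 17.

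In U2OS cells CPT raised BAG3, the exchange factor that feeds clients to autophagy, and lowered HSPBP1 and STUB1. These were 3 of the 10 members, 1 up and 2 down. None passed an absolute log2 fold change of 1, and the share of all genes that did is not given here for this comparison. Among all 19080 genes tested, 16.6% were called up and 15.3% down, and 3 of 10 members is a share near that background.

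BAG3 stood at 48.9, 49.1, 48.4 and 45.8 CPM in the CPT libraries 26 to 29 and at 34.9, 37.2, 36.5 and 30.9 CPM in the DMSO libraries 30 to 33. Every CPT library lay above every DMSO library. The log2 fold change was 0.47 (SE 0.13, adjusted p = 0.00434). Its size depended on the scaling: with library sizes alone it was 0.30 (adjusted p = 0.1) and no longer called. HSPBP1, which releases HSP70 clients and inhibits STUB1, stood at 8.43, 9.82, 10.2 and 9.86 CPM with CPT and at 10.8, 20.7, 15.8 and 18.6 CPM with DMSO. The groups did not overlap, but DMSO library 30 lay just above the highest CPT library. Its log2 fold change was -0.77 (SE 0.21, adjusted p = 0.00429), from 25 to 28 counts per CPT library.

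The ubiquitin ligase STUB1 stood at 42.2, 43.3, 40.9 and 52.8 CPM with CPT and at 48.03, 72.01, 54.8 and 69.2 CPM with DMSO. CPT library 29 lay above DMSO library 30, so the groups overlapped. The log2 fold change was -0.44 (SE 0.14, adjusted p = 0.0161), and STUB1 was not called without library 28, at -0.40 (adjusted p = 0.0602), or without library 31, at -0.36 (adjusted p = 0.0589). HSPH1 stood at 554, 545, 564 and 497 CPM with CPT and at 444, 463, 494 and 464 CPM with DMSO. The groups did not overlap, yet the log2 fold change of 0.22 (SE 0.10, adjusted p = 0.107) did not pass the test. ST13 stood at 149, 174, 173 and 191 CPM with CPT and at 147, 149, 141 and 155 CPM with DMSO. Its log2 fold change of 0.22 (SE 0.11, adjusted p = 0.13) did not pass either.

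BAG1 and BAG2 did not pass the test. BAG1 stood at 16.2, 13.8, 16.9 and 16.6 CPM with CPT and at 17.9, 15.5, 19.5 and 14.7 CPM with DMSO, a log2 fold change of -0.08, with a 95% interval from -0.43 to 0.27 and an adjusted p of 0.771. BAG2 stood at 90.4, 81.1, 84.1 and 88.4 CPM with CPT and at 98.7, 86.8, 94.4 and 83.9 CPM with DMSO, a log2 fold change of -0.072, with a 95% interval from -0.30 to 0.16 and an adjusted p of 0.69. In both genes the groups overlapped. BAG4, BAG5 and BAG6 had log2 fold changes of -0.33, -0.073 and -0.21, none of them called. The ratio of BAG3 to BAG1 counts, which serve different routes of client disposal, was 3.02, 3.55, 2.86 and 2.77 in the CPT libraries and 1.95, 2.4, 1.87 and 2.11 in the DMSO libraries. It was chosen after the levels were seen and is given with no test.

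Scaling mattered in this comparison because a library-size scale moved the median of all genes by -0.17 on the log2 scale against TMM. The calls over all genes were 52.1% up with TMM and 34.9% up with library sizes, and the members called were then 0 up and 4 down. BAG4, at -0.51 (adjusted p = 0.0405), and BAG6, at -0.39 (adjusted p = 0.0313), joined HSPBP1 and STUB1. Of the 9 p53 targets, 9 rose with CPT. So did 9 of the 10 U2OS markers, whose sum was 3298 to 3489.5 CPM with CPT and 1355 to 1655 CPM with DMSO. Their part in the member changes was not tested, and fewer cells of a kind and less RNA per cell cannot be told apart in such libraries.

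Several genes that work with BAG3 rose with CPT. Of 13 tested partners in aggresome formation and chaperone-assisted autophagy, 5 rose and 3 fell with CPT, with a median log2 fold change of 0.15 against 0.0079 over all genes. FLNC, the filamin whose damaged form is a BAG3 client, rose by 3.15 (SE 0.15, adjusted p = 4e-17), or 194 ± 31.1 against 21.9 ± 4.37 CPM. HSPB8, the small heat shock protein bound directly by BAG3, rose by 2.13 (SE 0.20, adjusted p = 2.63e-10), and CRYAB, another small heat shock protein, by 1.19 (SE 0.15, adjusted p = 3.08e-07). SQSTM1 and MAP1LC3B also rose, and HSPB1, HDAC6 and HSPB6 fell, the last at a mean log2 CPM of 0.27.

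Among the HSP70 proteins 1 rose and 2 fell of 9 tested (median -0.29). HSPA12A, a divergent HSP70, rose by 1.25 (SE 0.16, adjusted p = 2.39e-07), while the stress-inducible HSPA1A changed by -0.90 (SE 0.13, adjusted p = 1.56e-06) and HSPA1B by -0.86 (SE 0.18, adjusted p = 0.000267). The last pair are nearly identical copies whose reads the counting may split. Of the other exchange factors 3 rose and 1 fell of 5 tested (median 0.32). SIL1, which serves the HSP70 of the endoplasmic reticulum, changed by 0.97 (SE 0.15, adjusted p = 5.32e-06), the mitochondrial GRPEL1 by 0.58 (SE 0.13, adjusted p = 0.000526) and GRPEL2 by -0.53 (SE 0.18, adjusted p = 0.0234). HSPA4, an HSP110 relative of HSPH1, rose too. Of the HSF1 targets, genes driven by the heat shock factor, 3 rose and 8 fell of 19 tested (median -0.24), with CRYAB, HSPA1A and HSPA1B the largest among genes of mean log2 CPM over 3. Around STUB1, 0 rose and 1 fell of 7 tested (median 0.18), the one being the ubiquitin-conjugating enzyme UBE2D2 at -0.45 (SE 0.11, adjusted p = 0.00232).

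In the BAG6 complex and the tail-anchored protein pathway 2 genes fell with CPT. RNF126, the ubiquitin ligase that works with BAG6, changed by -0.61 (SE 0.16, adjusted p = 0.0033) and the targeting ATPase GET3 by -0.46 (SE 0.16, adjusted p = 0.029). Of the cochaperones with TPR domains and their like 3 rose and 5 fell of 17 tested (median -0.043), with PPP5C at -0.80 (SE 0.20, adjusted p = 0.00187), CDC37 at 0.71 (SE 0.12, adjusted p = 1.59e-05) and PTGES3 at -0.45 (SE 0.10, adjusted p = 0.000884). Among the ligands and clients of BAG domains outside HSP70, the mitophagy kinase gene PINK1 rose by 0.74 (SE 0.15, adjusted p = 0.000348), and BCL2 fell, at a mean log2 CPM of 2.10. Of the heat shock factors 0 rose and 1 fell of 3 tested (median 0.20), namely HSF2 at -0.39 (SE 0.13, adjusted p = 0.0204).

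Libraries 10, 12, 14 and 16 differed from libraries 11, 13, 15 and 17 in 5 of the 10 members. BAG3, HSPH1 and BAG2 were higher in libraries 10, 12, 14 and 16, and STUB1 and BAG1 lower. By the means, BAG3 went from 19.2 ± 3.78 to 39.3 ± 5.88 CPM, HSPH1 from 203 ± 18.7 to 396 ± 79.98 CPM and STUB1 from 111 ± 5.32 to 55.03 ± 8.87 CPM. Over all 19464 genes tested, 17.6% were called higher and 17.3% lower. Among genes with a mean log2 CPM over 3, 45.1% were called either way, and 5 of 10 members is near that share. Past an absolute log2 fold change of 1 there was 1 member, BAG3, while 14% of all genes passed that cutoff.

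BAG3 stood at 43.6, 44.6, 36.9 and 32.1 CPM in libraries 10, 12, 14 and 16 and at 22.2, 14.7, 17.5 and 22.5 CPM in libraries 11, 13, 15 and 17. The lowest of the even libraries, 16, was above the highest of the odd ones, 17. The log2 fold change was 1.04 (SE 0.17, adjusted p = 3.8e-05). HSPH1, the HSP110 that both exchanges nucleotide on HSP70 and holds unfolded protein, stood at 345, 443, 314 and 483 CPM and at 221, 177, 207 and 207 CPM. The groups did not overlap, and libraries 12 and 16 were the highest. Its log2 fold change was 0.98 (SE 0.12, adjusted p = 2.02e-06). BAG2, which blocks the STUB1 ligase, stood at 47.5, 50.3, 49.8 and 49.3 CPM and at 37.6, 36.2, 34.5 and 44.99 CPM. Library 17 came closest to the even libraries, without overlap. Its log2 fold change was 0.38 (SE 0.13, adjusted p = 0.0236), and BAG2 was not called without library 11, 12, 14 or 15, with adjusted p from 0.0554 to 0.0659.

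STUB1 stood at 46.9, 47.8, 61.8 and 63.5 CPM in libraries 10, 12, 14 and 16 and at 115, 113, 113 and 103 CPM in libraries 11, 13, 15 and 17. All 4 even libraries lay far below the odd ones, with libraries 10 and 12 the lowest. The log2 fold change was -0.99 (SE 0.12, adjusted p = 1.09e-06). BAG1, which carries a ubiquitin-like domain for the proteasome, stood at 25.6, 24.99, 30.6 and 32.2 CPM and at 37.1, 38.1, 31.4 and 39.7 CPM. Library 16 lay above library 15, so the groups overlapped. The log2 fold change was -0.35 (SE 0.14, adjusted p = 0.0497), and this call was lost in 12 of 15 alternatives, in which it ranged from -0.40 to -0.28 and the adjusted p from 0.038 to 0.13. Those without libraries 10, 11, 12, 13, 14 or 17 were among the 12.

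HSPBP1 stood at 21.9, 22.5, 22.9 and 24.1 CPM and at 27.8, 30.9, 29.02 and 20.1 CPM, and ST13 at 333, 360.0, 323 and 428 CPM and at 385, 416, 379.6 and 381 CPM, in the even and the odd libraries of 10 to 17. In both genes the groups overlapped. Their log2 fold changes were -0.22 (SE 0.15, adjusted p = 0.268) and -0.10 (SE 0.10, adjusted p = 0.493). BAG4 and BAG6 came close to the threshold, with log2 fold changes of 0.31 (SE 0.13, adjusted p = 0.06) and -0.30 (SE 0.12, adjusted p = 0.0628). BAG5 did not pass, at 0.093, with a 95% interval from -0.14 to 0.33 and an adjusted p of 0.562. BAG4 was called without library 10, at 0.37 (adjusted p = 0.0421), and also with RLE normalization (adjusted p = 0.0337), DESeq2 (adjusted p = 0.0403) and filterByExpr (adjusted p = 0.0192). BAG6 was called with all libraries in one fit (adjusted p = 0.0481), and without library 15, at -0.35 (adjusted p = 0.0449), or 16, at -0.38 (adjusted p = 0.0235). The BAG3 to BAG1 ratio was 1.7, 1.78, 1.21 and 0.995 in libraries 10, 12, 14 and 16. It was 0.599, 0.387, 0.558 and 0.566 in libraries 11, 13, 15 and 17, so the ranges lay apart. In the HEK293T DMSO set the ratio ran from 0.722 to 1.209. That range also lay apart from libraries 11, 13, 15 and 17 and overlapped that of libraries 10, 12, 14 and 16. A gap in this ratio is thus not particular to the even against odd comparison.

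BAG3, HSPH1 and BAG2 were higher together in libraries 10, 12, 14 and 16. Their promoters are therefore shown for a search of heat shock elements, the sites that heat shock factors bind. The search was for a pair of GAA units in opposite directions, which is a part of such a site. Each run is the 250 bases before the RefSeq start on GRCh38.p14, read 5′ to 3′ on the gene's strand: chr13:31162389-31162638 on the minus strand for HSPH1, chr10:119651130-119651379 on the plus strand for BAG3 and chr6:57172076-57172325 on the plus strand for BAG2. Capitals mark a match to GAANNTTC or TTCNNGAA.
HSPH1: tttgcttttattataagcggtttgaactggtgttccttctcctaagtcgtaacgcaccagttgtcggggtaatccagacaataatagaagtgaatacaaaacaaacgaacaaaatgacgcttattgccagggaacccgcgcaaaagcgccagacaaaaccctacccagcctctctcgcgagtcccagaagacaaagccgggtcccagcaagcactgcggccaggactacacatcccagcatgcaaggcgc
BAG3: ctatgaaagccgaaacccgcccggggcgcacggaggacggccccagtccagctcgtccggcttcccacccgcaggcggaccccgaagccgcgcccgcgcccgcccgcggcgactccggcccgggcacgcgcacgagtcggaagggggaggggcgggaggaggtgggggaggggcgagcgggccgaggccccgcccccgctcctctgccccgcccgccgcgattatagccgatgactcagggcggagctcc
BAG2: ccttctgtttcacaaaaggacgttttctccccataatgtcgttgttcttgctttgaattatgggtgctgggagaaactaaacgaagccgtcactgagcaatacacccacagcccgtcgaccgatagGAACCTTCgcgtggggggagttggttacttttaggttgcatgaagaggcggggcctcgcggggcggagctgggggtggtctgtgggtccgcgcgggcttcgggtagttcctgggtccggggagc
Both motifs read the same on either strand. BAG2 held 1 match of GAANNTTC, 124 bases before the start, and no match lay in the HSPH1 or BAG3 window. Of the 35116 promoters of the same length, 11.6% held at least 1 of these motifs. The windows of BAG1, BAG5, BAG6 and HSPBP1 held none. Windows were matched for 7 of the 10 members. A match is a string of letters and not a shown site, and its absence says only that the letters are not in this window.

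Of the 13 BAG3 partners, 6 were higher and 2 lower in libraries 10, 12, 14 and 16, with a median log2 fold change of 0.41 against 0.041 over all genes. The autophagy receptor gene SQSTM1 was higher by 1.03 (SE 0.12, adjusted p = 8.49e-07), or 120.1 ± 23.98 against 59.5 ± 2.97 CPM, and MAP1LC3B, which encodes the ATG8 protein it binds, by 1.10 (SE 0.12, adjusted p = 1.78e-07). HDAC6, the deacetylase that carries aggregates along microtubules, differed by -1.13 (SE 0.17, adjusted p = 1.41e-05). HSPB8, SYNPO2, FLNA and YWHAG were higher too and SYNPO lower, with HSPB8, SYNPO2 and SYNPO at a mean log2 CPM under 3.

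Of the HSF1 targets 7 were higher and 1 lower of 20 tested (median 0.21). The HSP40 genes DNAJB4 and DNAJA1 differed by 1.76 (SE 0.17, adjusted p = 3.03e-08) and 1.16 (SE 0.12, adjusted p = 7.11e-08), and HSPA1B by 1.04 (SE 0.26, adjusted p = 0.00358). HSF1 itself was the 1 of 3 heat shock factors called, at -0.53 (SE 0.13, adjusted p = 0.00205). Of the HSP70 proteins 3 were higher and 2 lower of 11 tested (median 0.10). HSPA1A and HSPA2 were higher at a mean log2 CPM under 3, with the mitochondrial HSPA9 at -0.41 (SE 0.11, adjusted p = 0.00514) and HSPA13 at -0.38 (SE 0.12, adjusted p = 0.0153). Of the other exchange factors 2 were higher and 1 lower of 6 tested (median 0.093). The higher pair are HSP110 relatives of HSPH1: HSPA4L at 0.73 (SE 0.11, adjusted p = 3.26e-05) and HSPA4 at 0.49 (SE 0.11, adjusted p = 0.00112). GRPEL2 stood at -0.45 (SE 0.15, adjusted p = 0.0235).

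Around BAG6 0 were higher and 4 lower of 11 tested (median -0.22). RNF126 differed by -0.91 (SE 0.16, adjusted p = 0.000135), UBL4A, a subunit of the BAG6 complex, by -0.82 (SE 0.13, adjusted p = 3.01e-05), and CAMLG, a receptor for tail-anchored proteins, by -0.46 (SE 0.11, adjusted p = 0.00238). GET1 was the other one called lower. Of the TPR and other cochaperones 2 were higher and 2 lower of 17 tested (median -0.011), with TTC1 at 0.69 (SE 0.13, adjusted p = 0.000265), PPP5C at -0.59 (SE 0.14, adjusted p = 0.00249) and TOMM34 at 0.44 (SE 0.13, adjusted p = 0.0115). FKBP4 was the other one called lower. Of the STUB1 partners 1 was higher and 0 lower of 7 tested (median -0.13), the one being UBE2V1, at a mean log2 CPM under 3. Of the 9 p53 targets, 8 were higher. The 10 U2OS markers, of which 4 were higher and 1 lower, summed to 89.7 to 119.6 CPM in the even and 50.1 to 61.8 CPM in the odd libraries of 10 to 17, and the 5 HEK293T markers to 311 to 444 and 340.3 to 535 CPM. Their part in the member differences was not tested.

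**Figure D2:**
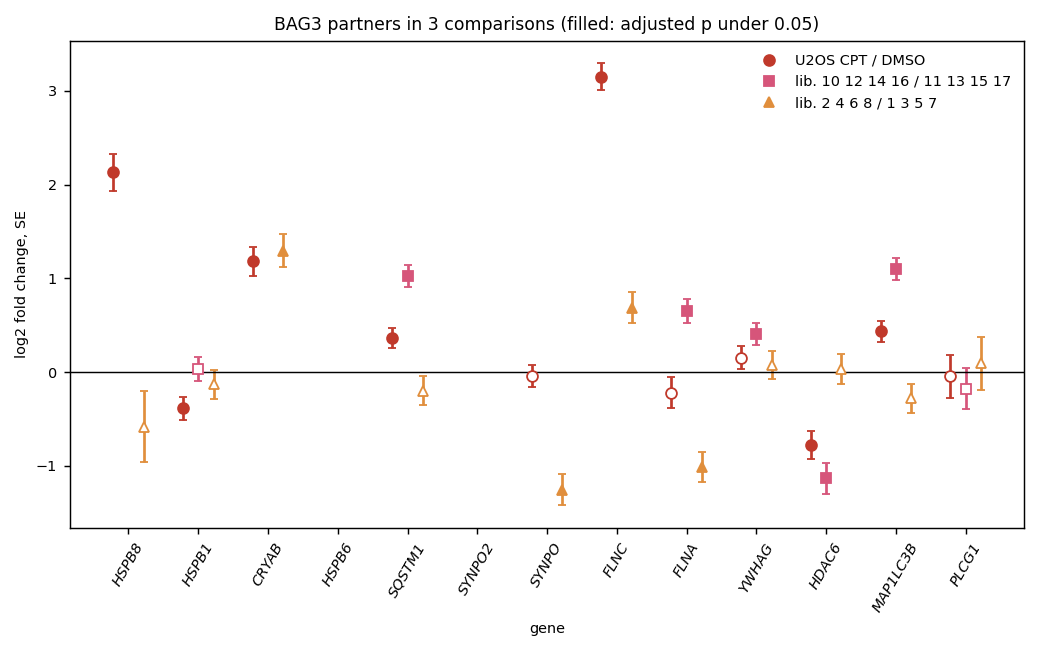
Log2 fold change with SE for the BAG3 partners in U2OS CPT against DMSO and in the even against the odd libraries of 10 to 17 and of 1 to 8. A point is shown where the mean log2 CPM was over 3, and filled points had an adjusted p under 0.05. FLNC and HSPB8 rose most in U2OS CPT, and SQSTM1 and MAP1LC3B were raised in libraries 10, 12, 14 and 16.

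Grouped as the labels give them, libraries 10, 12, 14 and 16 against libraries 1, 11, 13 and 15, all labelled U2OS WT, gave 0 members called by the edgeR test. That control set mixes library 1, which has a U2OS profile, with 3 that have none. STUB1 was then at -0.85 (adjusted p = 0.0685) and BAG3 at 0.94 (adjusted p = 0.0711). The share of all genes called in this grouping is not given, so the 0 has no background beside it.

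Libraries 2, 4, 6 and 8 differed from libraries 1, 3, 5 and 7 in 1 member: ST13, the cochaperone that slows client release, was lower. Of all 18591 genes tested, 6.43% were called higher and 6.56% lower in libraries 2, 4, 6 and 8. ST13 stood at 102, 86.2, 104 and 171 CPM in libraries 2, 4, 6 and 8 and at 143, 185, 169 and 244 CPM in libraries 1, 3, 5 and 7. Library 8 lay above libraries 1 and 5, so the groups overlapped, and libraries 7 and 8 were the highest of their sets. The log2 fold change was -0.68 (SE 0.17, adjusted p = 0.00311). ST13 kept its call with each library left out, from -0.53 (adjusted p = 0.0318) without library 7 to -0.95 (adjusted p = 3.03e-06) without library 8. Reads of ST13 could be shared with 17 pseudogenes. These held at most 12 counts each in any library, which does not show how many shared reads went unassigned. Unassigned reads were 32.9%, 36.8%, 34.6% and 23.8% of libraries 2, 4, 6 and 8. They were 27.85%, 34.2%, 25.2% and 23.9% of libraries 1, 3, 5 and 7. Their part in the ST13 difference was not tested.

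Without library 8, 4 members were called, all lower: ST13 with BAG4 at -0.60 (adjusted p = 0.0355), HSPBP1 at -0.63 (adjusted p = 0.0484) and STUB1 at -0.50 (adjusted p = 0.0263). With it STUB1 stood at 43.1, 32.8, 43.8 and 56.8 CPM against 63.9, 54.5, 50.7 and 58.03 CPM, and HSPBP1 at 9.67, 7.79, 17.4 and 22.8 CPM against 12.8, 19.8, 24.9 and 19.7 CPM. Library 8 was the highest of libraries 2, 4, 6 and 8 in both genes. The log2 fold changes were -0.33 (SE 0.16, adjusted p = 0.19) and -0.33 (SE 0.22, adjusted p = 0.382). Libraries 1 and 2 were the shallowest of the series, and HSPBP1 rested there on 15 and 11 counts. The share of all genes called without library 8 is not given, so the 4 calls have no background beside them.

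The stress-linked exchange factors did not pass the test. BAG3 stood at 38.7, 25.02, 30.8 and 35.97 CPM in libraries 2, 4, 6 and 8 and at 32.4, 34.7, 36.5 and 37.7 CPM in libraries 1, 3, 5 and 7, a log2 fold change of -0.14, with a 95% interval from -0.49 to 0.20 and an adjusted p of 0.677. HSPH1 stood at 462, 345, 427 and 649 CPM and at 477, 479.8, 519 and 661 CPM, a log2 fold change of -0.19, with a 95% interval from -0.51 to 0.13 and an adjusted p of 0.516. In both genes the groups overlapped. BAG1 stood at 27.3, 20.02, 21.9 and 25.3 CPM and at 27.3, 29.7, 22.5 and 22.5 CPM, and BAG2 at 106, 93.98, 99.4 and 126 CPM and at 98.00, 98.5, 98.5 and 104 CPM. Their log2 fold changes were -0.11 and 0.093, and the groups overlapped in both. BAG4, BAG5 and BAG6 were at -0.41, 0.11 and -0.12.

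Of the BAG3 partners 2 were higher and 2 lower of 13 tested (median -0.11), against a median of 0.04 over all genes. CRYAB differed by 1.30 (SE 0.17, adjusted p = 5.92e-08), the actin-linked SYNPO by -1.25 (SE 0.17, adjusted p = 8.52e-08) and the filamin gene FLNA by -1.01 (SE 0.16, adjusted p = 3.35e-06). FLNC was the other one called higher. Of the HSP70 proteins 1 was higher and 1 lower of 9 tested (median -0.24), with HSPA14, a ribosome-associated HSP70, at 0.99 (SE 0.17, adjusted p = 2.79e-05) and HSPA1A at -0.57 (SE 0.15, adjusted p = 0.00449). Of the HSF1 targets 1 was higher and 2 lower of 19 tested (median -0.25), namely CRYAB, HSPA1A and DNAJA1, the last at -0.62 (SE 0.15, adjusted p = 0.0027). Around BAG6 1 was higher and 0 lower of 11 tested (median -0.034), the one being GET1, an insertase for tail-anchored proteins, at 0.84 (SE 0.21, adjusted p = 0.00342). Of the STUB1 partners 0 were higher and 1 lower of 7 tested (median 0.041), UBE2D1 at -0.54 (SE 0.18, adjusted p = 0.0303). Of the ligands and clients outside HSP70 1 was higher and 0 lower of 6 tested (median 0.14), the TNF receptor gene TNFRSF1A, a target of BAG4, at 0.59 (SE 0.15, adjusted p = 0.00472). The other exchange factors, the TPR cochaperones and the heat shock factors had 0 calls of 5, 17 and 3 tested by edgeR's quasi-likelihood test. Of the U2OS markers 3 were higher and 4 lower, with sums of 1639.9 to 1881 CPM in libraries 2, 4, 6 and 8 and 1760.0 to 2387 CPM in libraries 1, 3, 5 and 7. Of the 9 p53 targets 3 were higher, among them GDF15, a secreted stress cytokine, at 1.25 (SE 0.17, adjusted p = 1.64e-07). Their part in the member differences was not tested.

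By their labels, libraries 2, 4, 6 and 8 (HEK293T CPT) against all 8 libraries labelled HEK293T DMSO gave 3 members lower, ST13 at -1.02 (adjusted p = 0.0245), BAG4 at -1.12 (adjusted p = 0.0375) and STUB1 at -0.73 (adjusted p = 0.0494). Of these 8 controls, libraries 3, 5 and 7 have a U2OS profile and the other 5 do not. The share of all genes called in this grouping is not given, so the 3 members have no background beside them.

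Inhibition of ATM in HEK293T cells left no detectable change in these genes. By edgeR's quasi-likelihood test 0 of the 10 members were called, 0 reached an unadjusted p under 0.05, and the smallest adjusted p was 0.901. The likelihood ratio test and DESeq2 called 0 as well. Of all 18413 genes tested, 0% were called up and 0.00543%, a single gene, down. At an unadjusted p under 0.05 there were 1019 genes.

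BAG1 came nearest, at 16.4, 13.9, 15.1 and 17 CPM in the inhibitor libraries 18 to 21 and 17.4, 20.6, 18.2 and 20.7 CPM in the DMSO libraries 22 to 25. The inhibitor libraries were all lower, and the log2 fold change was -0.29, with a 95% interval from -0.59 to 0.02 and an adjusted p of 0.901. BAG2 stood at 32.8, 32.3, 31.6 and 34.9 CPM and at 36.4, 36.05, 36.99 and 38.8 CPM, without overlap and with a log2 fold change of -0.16. BAG3 stood at 17.9, 19.3, 17.7 and 24.6 CPM and at 21.1, 20.8, 18.2 and 14.9 CPM and overlapped. Its interval, from -0.22 to 0.41, leaves out a change of the size seen for BAG3 between the even and odd libraries of 10 to 17.

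HSPH1 stood at 194, 181, 204 and 176 CPM with the inhibitor and at 159.6, 171, 168 and 178 CPM with DMSO, and the groups overlapped at a log2 fold change of 0.17, with a 95% interval from -0.034 to 0.38 and an adjusted p of 0.917. STUB1 stood at 94.6, 70.6, 82.1 and 85.02 CPM and at 79.5, 84.03, 83.5 and 88.1 CPM, ST13 at 252, 197, 215 and 233 CPM and at 237, 224, 237 and 249 CPM, and HSPBP1 at 20.8, 15.9, 15.95 and 15.5 CPM and at 12.5, 13.7, 13.3 and 18.1 CPM. All 3 genes overlapped between the groups. Their intervals ran from -0.22 to 0.22, from -0.27 to 0.14 and from -0.076 to 0.60. BAG4, BAG5 and BAG6 had log2 fold changes of -0.12, -0.0056 and 0.08. None of the genes in the 9 lists of partners was called.

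**Figure D3:**
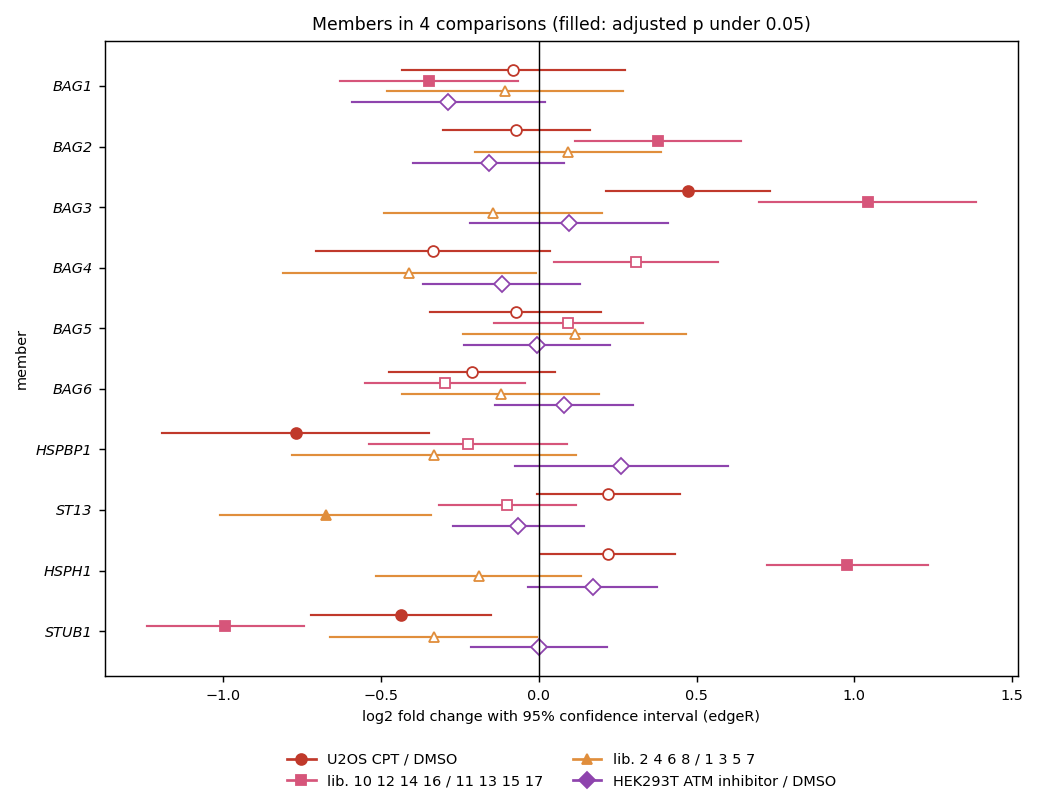
Log2 fold change of each member with its 95% confidence interval in 4 comparisons. Filled marks had an adjusted p under 0.05. BAG3 lies to the right and STUB1 to the left in U2OS CPT and in libraries 10, 12, 14 and 16, ST13 to the left in libraries 2, 4, 6 and 8, and no ATM inhibitor mark is filled.

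The response of U2OS cells to CPT was then set against the difference between the even and odd libraries of 10 to 17, which would be the HEK293T response if the numbers are read that way. The test was of the difference between the responses itself. For the proteomics done on the same cells the study gives a higher CPT dose for U2OS than for HEK293T, so on that reading dose and cell line cannot be told apart in these differences. HSPH1 differed most, with a log2 difference of -0.76 (SE 0.17, adjusted p = 0.000692): its log2 fold change was 0.22 in U2OS and 0.98 in libraries 10 to 17. BAG3 was at 0.47 and 1.04, a difference of -0.56 (SE 0.21, adjusted p = 0.0495). BAG4 was at -0.33 and 0.31, a difference of -0.64 (SE 0.22, adjusted p = 0.0331). STUB1, lower in both, was at -0.44 and -0.99, a difference of 0.56 (SE 0.19, adjusted p = 0.0324). Thus 3 members had a more negative and 1 a more positive response in U2OS, where 10.5% and 9.86% of all 22363 genes tested did. Of genes with a mean log2 CPM over 3, 33.9% were called either way, and 4 of 10 members is near that share.

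HSPH1 was called in all 23 alternatives other than the fold cutoff, with differences from -0.95 to -0.65. The other calls were weaker. BAG3 was lost in 14 of the 23, among them those without library 10, 12, 13, 14, 15, 26, 27, 28, 29, 30, 31 or 32, with adjusted p up to 0.12. BAG4 was lost in 8, among them those without library 13, 16, 27, 28, 29, 30 or 32, with adjusted p up to 0.12. STUB1 was lost in 7, among them those without library 10, 11, 12, 29, 30 or 32, with adjusted p up to 0.18, its value under the library-size scale, which moved the median of all genes by -0.19 and the share of calls that were positive from 48.5% to 30.7%. BAG1, BAG2, BAG5, BAG6, HSPBP1 and ST13 had differences of 0.27, -0.45, -0.16, 0.087, -0.54 and 0.32 that did not pass. BAG2, with an adjusted p of 0.0566, was called without library 17 or 33 and also with RLE normalization (adjusted p = 0.0433), DESeq2 (adjusted p = 0.0156), filterByExpr (adjusted p = 0.0114), library sizes alone (adjusted p = 0.00662) and all libraries in one fit (adjusted p = 0.0488). HSPBP1 was called without library 30, at -0.70 (adjusted p = 0.0438), and with library sizes alone, at -0.74 (adjusted p = 0.0332). Of the 20 HSF1 targets, 0 had a more positive and 6 a more negative response in U2OS.

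Between U2OS DMSO and HEK293T DMSO 7 of the 10 members were called. U2OS cells had more HSPH1, BAG2 and BAG3 and less BAG4, ST13, STUB1 and BAG5. Of all 19739 genes tested, 32% were called higher and 30.1% lower in U2OS. Among genes with a mean log2 CPM over 3, 73% were called either way, and 7 of 10 members is near that share. HSPH1, BAG2 and BAG4 passed an absolute log2 fold change of 1, as 39.9% of all genes did. The DMSO libraries are those of the treatment comparisons above.

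HSPH1 stood at 466 ± 20.5 CPM in U2OS DMSO and at 169 ± 7.51 CPM in HEK293T DMSO, a log2 fold change of 1.47 (SE 0.10, adjusted p = 1.8e-14). BAG2 stood at 90.9 ± 6.8 and 37.1 ± 1.22 CPM, a log2 fold change of 1.31 (SE 0.12, adjusted p = 9.7e-12). BAG3 stood at 34.9 ± 2.81 and 18.7 ± 2.86 CPM, a log2 fold change of 0.90 (SE 0.15, adjusted p = 2.4e-06). Every U2OS library exceeded every HEK293T library in these 3 genes. BAG4, which holds the TNF receptor silent, stood at 21.97, 16.5, 17.6 and 13.9 CPM in U2OS DMSO and at 43.9, 34.02, 45.9 and 37.7 CPM in HEK293T DMSO, without overlap. Its log2 fold change was -1.20 (SE 0.15, adjusted p = 3.16e-08). The remaining calls were smaller, -0.67 (SE 0.10, adjusted p = 8.77e-07) for ST13, -0.45 (SE 0.12, adjusted p = 0.00204) for STUB1 and -0.35 (SE 0.12, adjusted p = 0.0118) for BAG5, the BAG protein with several BAG domains. Those 3 genes did not overlap between the lines either. How many of all genes lay apart in this way was not counted, so the lack of overlap is not shown to be particular to the members. BAG1, BAG6 and HSPBP1 were at -0.18, 0.10 and 0.20 and did not pass.

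Libraries 1, 3, 5 and 7 against libraries 11, 13, 15 and 17 gave a further comparison of a U2OS with a HEK293T profile, in other libraries. Here 8 members were called, 3 higher and 5 lower in libraries 1, 3, 5 and 7, beside 33.3% higher and 31.1% lower of all 19435 genes tested. Among genes with a mean log2 CPM over 3, 74.5% were called either way, so these 8 of 10 members are again near the background. HSPH1, BAG2 and BAG3 were again higher, with log2 fold changes of 1.51, 1.49 and 1.00. BAG4, ST13, STUB1 and BAG5 were again lower, at -1.10, -0.95, -0.87 and -0.54. BAG1 was lower as well, at -0.44 (SE 0.16, adjusted p = 0.0177). HSPH1, BAG2 and BAG4 passed the fold cutoff, as 44.6% of all genes did. No library of one pair of sets is in the other, but their odd-numbered libraries are the controls of the even against odd comparisons above.

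The level within one background also differed between the sets. ST13 stood at 237 ± 10.3 CPM in HEK293T DMSO and at 390.2 ± 17.3 CPM in libraries 11, 13, 15 and 17, and STUB1 at 83.8 ± 3.48 and 111 ± 5.32 CPM. The gaps were wider in ratio for BAG1, at 19.2 ± 1.67 and 36.6 ± 3.6 CPM, and HSPBP1, at 14.4 ± 2.51 and 26.96 ± 4.78 CPM. These sets were not compared by a test. Unassigned reads were 24.7% to 31.3% of the HEK293T DMSO libraries and 10.9% to 12.4% of libraries 11, 13, 15 and 17. BAG3 differed little between them, at 18.7 ± 2.86 and 19.2 ± 3.78 CPM. With library sizes alone the median of all genes moved by -0.22 and -0.34 in the cell line comparisons, and in the latter the share of calls that were higher went from 51.7% to 39.6%. The directions of the called members were kept. On that scale BAG1 was also called lower in U2OS DMSO, at -0.40 (adjusted p = 0.0394), and BAG6 and HSPBP1 lower in libraries 1, 3, 5 and 7, at -0.55 (adjusted p = 0.00136) and -0.66 (adjusted p = 0.0019). HSPBP1 was called there without library 5 or 17 too, and BAG6 with all libraries in one fit.

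**Figure D4:**
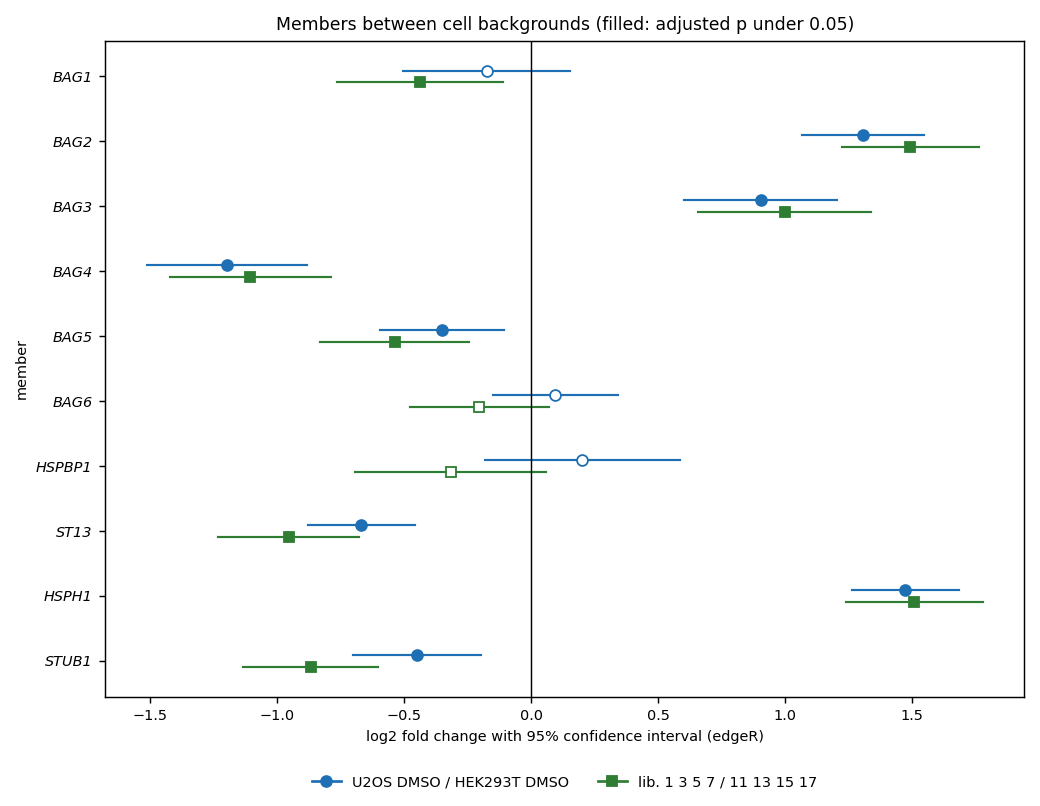
Log2 fold change of each member with its 95% confidence interval, U2OS DMSO against HEK293T DMSO and libraries 1, 3, 5 and 7 against libraries 11, 13, 15 and 17. Filled marks had an adjusted p under 0.05. HSPH1, BAG2 and BAG3 lie to the right and BAG4, ST13, STUB1 and BAG5 to the left in both.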

How the data were processed

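Gene expression of 32 samples of U2OS and HEK293T was measured by QuantSeq 3′ mRNA sequencing. The authors deposited raw counts per gene with the Lexogen QuantSeq FWD pipeline for molecular identifiers, without normalization. The genome build and annotation are not given in the sources used here. The table held 60107 genes, 5 rows of unassigned reads and 92 spike-in rows, and both of the latter kinds were left out (the unassigned reads were 10.9% to 40.6% of a library). All columns were used. Symbols came from a reference list of gene names and, where it held none, from GENCODE 29, for 56531 gene identifiers.

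Library totals over genes lay between 1232674 and 6362433, so that 3 counts, a floor for counting error only, equal 0.458 to 2.64 CPM after scaling. Libraries of a set were compared with edgeR 4.0.16 in R 4.3.3 (TMM, quasi-likelihood test, two-sided, a gene kept if 2 or more libraries exceeded 1 count, Benjamini-Hochberg over all genes tested). Calls needed an adjusted p under 0.05, and the study's added cutoff of an absolute log2 fold change over 1 was counted separately. Alternatives were RLE normalization, the likelihood ratio test, DESeq2 1.42.0, filterByExpr, no filter, all libraries in one fit, groups by label, each library left out, and library-size scaling, added after seeing the data. The procedure was tested on simulated data.

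The members and lists were chosen with earlier results of these data known. All 10 members are named, with values in every library for those called in at least 1 of the first 4 comparisons. Of each list up to 3 called genes are named, by size among those with a mean log2 CPM over 3, and others only where a count needed it, chosen after their values were seen. Promoter windows came from RefSeq (GRCh38.p14). Some genes of the lists are not reported here.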

Additional observations from a re-analysis of the deposited data

Results flagged for a closer look

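The difference in response between U2OS CPT and the even against odd libraries of 10 to 17 passed its own test for 4 members. Among genes with a mean log2 CPM over 3, 33.9% passed the same test. HSPH1 differed by -0.76, BAG4 by -0.64, BAG3 by -0.56 and STUB1 by 0.56 on the log2 scale. HSPH1 kept its call in all 23 alternatives other than the fold cutoff, and the other 3 members did not.

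A library stood apart from the other 3 of its set in 4 of the 80 sets of member values. Chance flags about 1 in 20, so 4 is the number chance gives. BAG2 was 103.9 CPM in library 7 beside 98.0 to 98.5 CPM in libraries 1, 3 and 5. HSPBP1 was 20.8 CPM in ATM inhibitor library 18 beside 15.5 to 15.95 CPM. ST13 was 416 CPM in library 13 beside 379.6 to 385 CPM in libraries 11, 15 and 17. STUB1 was 103 CPM in library 17 beside 113 to 115 CPM in libraries 11, 13 and 15.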

How the results depend on the processing

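No called member reversed its direction under any alternative. The members called are counts in the order U2OS CPT, ATM inhibitor, libraries 10 to 17, libraries 1 to 8, U2OS DMSO against HEK293T DMSO, libraries 1, 3, 5 and 7 against 11, 13, 15 and 17, and the difference between responses: 3, 0, 5, 1, 7, 8 and 4. With the fold cutoff they were 0, 0, 1, 0, 3, 3 and 0. The shares of all genes past that cutoff are given above only for the comparisons with members past it. Grouped by label they were 0 for libraries 10, 12, 14 and 16 and 3 for libraries 2, 4, 6 and 8. With no filter the difference between responses had 2. With each library left out the counts ran from 2 to 3, 0 to 0, 3 to 6, 1 to 4, 7 to 7, 8 to 9 and 1 to 5. The shares of all genes called in these fits, and in the groups by label, are not given. The high value of libraries 1 to 8 came without library 8. The lowest of libraries 10 to 17 came without library 11, 12 or 14, and the highest without library 16. The lowest of U2OS CPT came without library 28 or 31. The difference between responses had 2 without library 10, 12, 13, 27, 28 or 30 and 1 without library 29 or 32. All other counts were within 1.5 times the first. The causes were not tested. HSPBP1, with 25 to 28 counts in each U2OS CPT library, is among the members that depth limits most, and a difference that was not called is not shown to be absent. No paired analysis was possible because the labels give no number to more than 1 library and state no pairing, and a pairing of neighbouring numbers would be a guess.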

Other observations

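HSPA4L, an HSP110 relative of HSPH1 and so a further exchange factor of HSP70, was chosen after its values were seen. It had 217 to 1347 counts in each of the 16 libraries numbered 10 to 25. In the 16 libraries numbered 1 to 8 and 26 to 33 it had at most 4 counts, and 12 of them had 0. HEK293T DMSO stood at a mean of 72.4 CPM. With all 4 U2OS DMSO libraries at 0, and 3 counts per library taken as the floor (a mean of 0.907 CPM), HSPA4L was at least 79.8-fold higher in HEK293T DMSO. Libraries 3, 5 and 7, labelled HEK293T DMSO, had at most 1 count of it. Libraries 11, 13 and 15, labelled U2OS WT, had at least 544.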
